A study of Mus musculus with 15 samples.

Results

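CXC chemokines are small secreted proteins that guide leukocytes along gradients, and CXC receptors are the G protein coupled receptors that read them. The genes described here are 10 members of this family that were listed by name: the ligands Cxcl1, Cxcl2, Cxcl3, Cxcl5, Cxcl10, Cxcl12, Ppbp and Pf4, and the receptors Cxcr2 and Cxcr4. All 10 were found by symbol in the deposited table, each on a single probe set that carries 1 gene symbol, among 22180 genes in all.

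The arteries were carotid arteries of female C57Bl/6J mice aged 21 to 22 weeks, taken 5 days after the left common carotid artery had been tied off, an injury model in which a neointima forms inside the vessel. The 4 groups were Has3-deficient ligated (3 arrays), wildtype ligated (4 arrays), Has3-deficient non-ligated (4 arrays) and wildtype non-ligated (4 arrays). Has3-deficient mice lack hyaluronan synthase 3, an enzyme that makes the matrix sugar hyaluronan, and the labels do not say how the gene was inactivated or whether each array is a separate animal, so the p-values speak only to how far these arrays spread. The Has3-deficient ligated arrays carry the numbers 3, 5 and 6 in the labels, and values are given in the order of the numbers. Each value below is a log2 value from which the probe set's median across the 15 arrays has been taken: differences between arrays are kept, absolute levels are not, and no gene's level can be set against another's. Because 8 of the 15 arrays are non-ligated, that median usually falls on a non-ligated array.

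In injured vessels the family works in a few branches. Cxcl1, Cxcl2, Cxcl3, Cxcl5 and the protein cut from Ppbp carry the amino acid motif ELR and draw neutrophils through Cxcr2; Cxcl10 is induced by interferons and draws T and NK cells through Cxcr3; Cxcl12, made by stromal cells, retains and recruits progenitors and leukocytes through Cxcr4. Ppbp and Pf4 are known best as chemokines stored in the granules of platelets.

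Many of these genes lie side by side. In the RefSeq gene table of assembly GRCm38.p6 the order on chromosome 5 is Cxcl5, Ppbp, Pf4, Cxcl3, Cxcl15, Cxcl1 and Cxcl2, with no other gene between them; Cxcl10 lies elsewhere on chromosome 5 beside Cxcl9 and Cxcl11, Cxcl12 is on chromosome 6, and both receptors are on chromosome 1. Promoter sequences were available for 9 of the 10 genes, Cxcl5 being the exception. The stretches below end at the base before the annotated start (base -1) and are given 5′ to 3′ on the strand of the gene from RefSeq, build GRCm38.p6. They are shown because Cxcl1, Cxcl2 and Cxcl3 have the same bases upstream, with the other chromosome 5 genes beside them; capitals mark the matches to the motifs named after them. Cxcl1 is chr5:90891135-90891244, Cxcl2 chr5:90903789-90903898, Cxcl3 chr5:90785991-90786100, Ppbp chr5:90768408-90768517 and Pf4 chr5:90772325-90772434, all on the plus strand, and Cxcl10 is chr5:92348890-92349109 on the minus strand.
Cxcl1: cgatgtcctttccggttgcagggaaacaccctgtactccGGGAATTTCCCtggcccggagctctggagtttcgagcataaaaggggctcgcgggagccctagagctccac
Cxcl2: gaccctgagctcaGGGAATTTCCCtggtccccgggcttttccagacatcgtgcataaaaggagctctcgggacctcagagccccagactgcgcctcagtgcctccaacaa
Cxcl3: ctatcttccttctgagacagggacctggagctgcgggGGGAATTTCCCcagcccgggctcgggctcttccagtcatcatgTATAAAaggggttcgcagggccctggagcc
Cxcl10: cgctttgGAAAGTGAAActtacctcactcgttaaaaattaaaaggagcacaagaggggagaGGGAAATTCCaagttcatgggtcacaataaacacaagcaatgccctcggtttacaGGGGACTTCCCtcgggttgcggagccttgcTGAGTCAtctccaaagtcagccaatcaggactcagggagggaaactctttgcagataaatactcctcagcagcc
Ppbp: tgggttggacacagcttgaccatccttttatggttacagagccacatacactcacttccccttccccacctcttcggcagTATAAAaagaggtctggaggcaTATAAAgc
Pf4: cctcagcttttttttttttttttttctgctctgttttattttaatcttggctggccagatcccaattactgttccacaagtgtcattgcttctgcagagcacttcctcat

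The decamer GGGAATTTCC, a form of the site bound by NF-kB, starts at base -71 before Cxcl1, at -97 before Cxcl2 and at -73 before Cxcl3, overlapped in each by a second match shifted by a base on the other strand. Of 32851 promoters searched over the same 250 bases and on both strands, 28 (0.0852%) hold this decamer, those of Cxcl1, Cxcl2 and Cxcl3 included. The decamer was chosen because these genes share it, so its presence before all of them is not a separate result. The NF-kB consensus, which the decamer also matches, was found in 7.25% of promoters; Cxcl10 has matches starting at -159, -104 and -103, of which the last pair overlap. Cxcl10 also holds an AP-1 match (TGANTCA) at -74, present in 6.75% of promoters, and a match to the interferon response element (GAAAGTGAAA) at -213, an element present in 2.98%. TATAAA was found at -30 before Cxcl3, Ppbp and Cxcr4 and in 12.4% of promoters. Ppbp has an AP-1 match at -204. In the searched windows of Pf4, Cxcr2 and Cxcl12 none of these letters occurred. A match is a description of the bases and not of a factor bound there.

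Has3 itself was checked first. Its probe set averaged -0.05 ± 0.17 (SD, n = 3) in Has3-deficient ligated and 0.16 ± 0.29 (n = 4) in wildtype ligated arteries, and 0.12 ± 0.24 (n = 4) in Has3-deficient non-ligated and 0.03 ± 0.13 (n = 4) in wildtype non-ligated arteries. It did not separate the genotypes, and since it is not known whether it lies in the part that was removed, it checks nothing and the genotypes below follow the labels. Of the arrays, Has3-deficient non-ligated array 3 stood apart, with a standard deviation of 0.42 over all probe sets against 0.23 to 0.39 on the others and a mean of 4.44 over 8 measured neuron and chromaffin genes against -0.38 to 2.70; of these 8 genes 0 passed with ligation in either genotype. Smooth muscle markers fell with ligation in 10 of 10 genes in each genotype, and macrophage markers rose in 12 of 12 in each, as counted with the limma test used below.

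Ligation was followed by a rise of nearly the whole set in both genotypes. In Has3-deficient arteries 9 of 10 genes rose (limma, adjusted p under 0.05 over all 22180 genes), where 10.2% of all genes did, and Ppbp did not pass. In wildtype arteries 10 of 10 rose, where 13.2% of all genes did; both counts were the same without Has3-deficient non-ligated array 3. None fell, where 8.08% of all genes did in Has3-deficient and 14.6% in wildtype arteries. The median change of the 10 genes was 2.62 log2 units in Has3-deficient and 2.66 in wildtype arteries, against -0.03 and 0.01 over all genes. Arrays of ligated and non-ligated arteries did not overlap for 10 of the 10 genes in Has3-deficient arteries, as for 13.0% of all genes in the upward direction, and for 9 of 10 in wildtype arteries, as for 14.0% of all genes; Ppbp was the exception. The genes were chosen with earlier results of these data known, so these counts are a description of them. In whole arteries, a change in the number of cells of a type and a change of RNA per cell cannot be told apart.

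**Figure D1:**
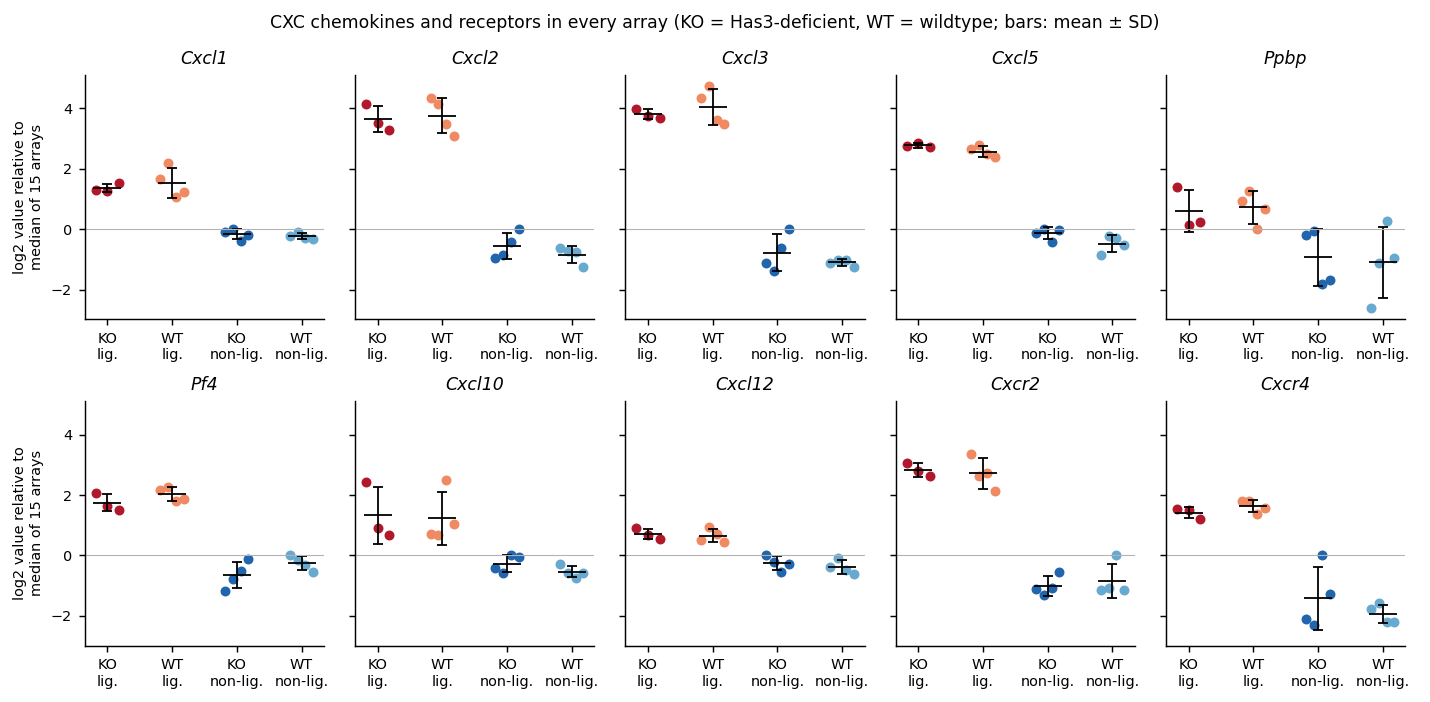
Each panel plots 1 gene, with the log2 value relative to the median of the 15 arrays on the y axis and the 4 groups along the x axis (KO, Has3-deficient; WT, wildtype; lig., ligated). Points are arrays and bars are mean ± SD; in every panel but Ppbp all ligated arrays of both genotypes lie above all non-ligated arrays.

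Cxcl3 and Cxcl2 moved most. Cxcl3, a neutrophil attractant, had values of 3.99, 3.76 and 3.68 in Has3-deficient ligated arteries, against -1.11, -1.38, -0.62 and 0.00 in Has3-deficient non-ligated ones. In wildtype it had 4.35, 4.75, 3.61 and 3.49 after ligation, against -1.13, -1.01, -1.02 and -1.25 without. The lowest ligated array thus lay 3.68 log2 units above the highest non-ligated one in Has3-deficient arteries and 4.51 above it in wildtype. The change was 4.58 ± 0.31 (± standard error; 24.0-fold, adjusted p = 1.68e-07, limma) in Has3-deficient arteries and 5.15 ± 0.29 (35.6-fold, adjusted p = 2.17e-08) in wildtype. In both genotypes this was the change that ranked 8 from the top of 22180 genes.

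Cxcl2, known as macrophage inflammatory protein in the mouse and also a ligand of Cxcr2, had values of 4.13, 3.51 and 3.27 in Has3-deficient ligated arteries, against -0.94, -0.85, -0.44 and 0.00 in Has3-deficient non-ligated ones. Wildtype arteries gave 4.33, 4.15, 3.49 and 3.08 after ligation, against -0.63, -0.73, -0.77 and -1.25 without. The ligated arrays stood at least 3.27 log2 units above every non-ligated array of the same genotype. It rose by 4.19 ± 0.31 (18.3-fold, adjusted p = 3.37e-07, limma) in Has3-deficient and by 4.61 ± 0.29 (24.4-fold, adjusted p = 5.03e-08) in wildtype arteries.

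Cxcl1, which carries the same decamer upstream as Cxcl2 and Cxcl3, changed less. It had 1.30, 1.27 and 1.52 in Has3-deficient ligated arteries, against -0.09, 0.00, -0.38 and -0.18 in Has3-deficient non-ligated ones. In wildtype the values were 1.67, 2.19, 1.07 and 1.24 after ligation, against -0.23, -0.11, -0.29 and -0.34 without. The groups did not overlap in either genotype, and the spread in wildtype ligated arteries (SD 0.50) was wider than in the other groups (SD 0.10 to 0.16). Cxcl1 rose by 1.52 ± 0.20 (2.87-fold, adjusted p = 8.22e-05, limma) in Has3-deficient arteries and by 1.79 ± 0.18 (3.45-fold, adjusted p = 5.85e-06) in wildtype. Among wildtype ligated arrays, arrays 1 and 2 lay above arrays 3 and 4 for Cxcl1, Cxcl2 and Cxcl3 alike. That order was not particular to them: Cxcl5, Ppbp, Pf4, Cxcr4 and the means of the neutrophil and macrophage markers had it too. Cxcl10, Cxcl12 and Cxcr2 did not.

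Cxcl5, a neutrophil attractant made by epithelial and stromal cells among others, was the most even of the ligands among ligated arrays, with an SD of 0.08 in Has3-deficient and 0.18 in wildtype. It had 2.74, 2.86 and 2.71 in Has3-deficient ligated arteries, against -0.12, 0.00, -0.43 and -0.03 in Has3-deficient non-ligated ones. Wildtype arrays gave 2.65, 2.78, 2.48 and 2.38 after ligation, against -0.87, -0.22, -0.29 and -0.54 without. All 7 ligated arrays fell between 2.38 and 2.86. The rise was 2.91 ± 0.15 (7.53-fold, adjusted p = 2.07e-08, limma) in Has3-deficient and 3.05 ± 0.14 (8.28-fold, adjusted p = 4.70e-09) in wildtype arteries.

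Pf4, platelet factor 4, rose in both genotypes, and Ppbp, whose product is cut to a ligand of Cxcr2, varied widely between arrays. Pf4 had 2.06, 1.64 and 1.52 in Has3-deficient ligated arteries, against -1.18, -0.78, -0.53 and -0.12 in Has3-deficient non-ligated ones, and 2.15, 2.28, 1.81 and 1.87 in wildtype ligated arteries, against 0.00, -0.15, -0.31 and -0.54 in wildtype non-ligated ones. Its change was 2.39 ± 0.22 (5.25-fold, adjusted p = 2.20e-06, limma) in Has3-deficient and 2.28 ± 0.20 (4.85-fold, adjusted p = 1.28e-06) in wildtype arteries. Neither genotype's groups overlapped for Pf4.

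Ppbp had 1.39, 0.12 and 0.25 in Has3-deficient ligated arteries, against -0.18, -0.05, -1.82 and -1.69 in Has3-deficient non-ligated ones. In wildtype it had 0.94, 1.26, 0.00 and 0.66 after ligation, against -2.62, -1.11, 0.27 and -0.94 without. Wildtype non-ligated array 3, at 0.27, lay above wildtype ligated array 3, at 0.00, and the range within wildtype non-ligated arteries (2.89) exceeded the change itself. The change was 1.52 ± 0.61 (adjusted p = 0.109, limma) in Has3-deficient arteries, which did not pass, and 1.82 ± 0.57 (3.52-fold, adjusted p = 0.0269) in wildtype. The wildtype call was lost when wildtype non-ligated array 1 (1.31, adjusted p = 0.0821) or 2 (1.81, adjusted p = 0.0561) or ligated array 1 (1.74, adjusted p = 0.0636), 2 (1.63, adjusted p = 0.0773) or 4 (1.83, adjusted p = 0.0508) was left out.

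**Figure D2:**
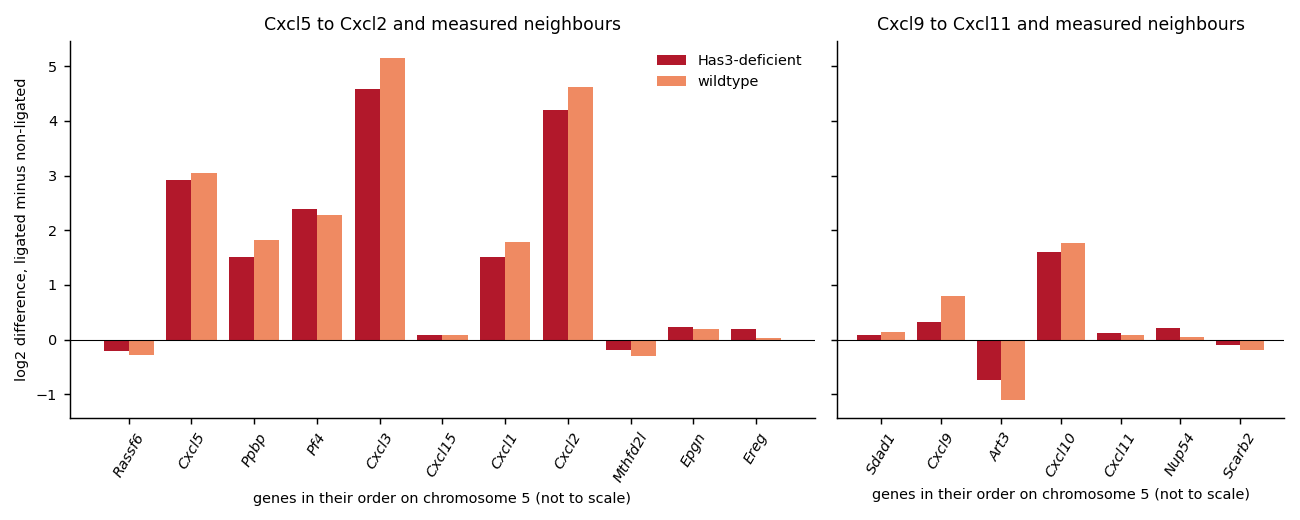
Bars give the log2 difference, ligated minus non-ligated, in Has3-deficient and wildtype arteries for measured genes in their order along chromosome 5, with the run from Cxcl5 to Cxcl2 on the left and that from Cxcl9 to Cxcl11 on the right. In the left panel Cxcl15 (0.08 and 0.09) stands between Cxcl3 and Cxcl1 with bars near 0, as do the flanking genes Epgn and Ereg.

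The rise was not seen on every probe set of this stretch of chromosome. Since signal levels are lost, an unchanged probe set cannot be told from one that detects nothing. Cxcl15, a chemokine of lung epithelium that lies between Cxcl3 and Cxcl1, changed by 0.08 ± 0.07 in Has3-deficient (adjusted p = 0.516, limma) and by 0.09 ± 0.07 (adjusted p = 0.404) in wildtype arteries. On the far side of Cxcl2, Mthfd2l, a mitochondrial folate enzyme, changed by -0.19 (adjusted p = 0.142) in Has3-deficient arteries and fell by 0.29 (adjusted p = 0.0108) in wildtype ones. Epgn and Ereg, ligands of the EGF receptor family beyond it, did not pass in either genotype, and neither did Rassf6 on the near side. Cxcl10's neighbour Art3 fell by 0.73 (adjusted p = 0.0465, kept in 9 of 23 alternatives) in Has3-deficient arteries and by 1.11 (adjusted p = 0.00147) in wildtype ones. Cxcl11 is annotated as a transcribed pseudogene in this mouse assembly and did not pass in either genotype (0.12 and 0.09).

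Cxcl10, the interferon-induced ligand of Cxcr3, rose in both genotypes with 1 array far above the rest of each ligated group. It had 2.42, 0.90 and 0.67 in Has3-deficient ligated arteries, against -0.43, -0.58, 0.00 and -0.06 in Has3-deficient non-ligated ones. In wildtype it had 0.70, 0.66, 2.5 and 1.04 after ligation, against -0.28, -0.57, -0.74 and -0.58 without. The groups did not overlap, but the SD within ligated arteries (0.95 in Has3-deficient, 0.87 in wildtype) was the widest among the 10 genes. The change was 1.60 ± 0.43 (3.03-fold, adjusted p = 0.0193, limma) in Has3-deficient and 1.77 ± 0.40 (3.40-fold, adjusted p = 0.00406) in wildtype arteries. Without Has3-deficient ligated array 3 it was 1.05 and did not pass (adjusted p = 0.112). Irf7, an interferon response gene, was the nearest in pattern to Cxcl10 outside the set, with predicted genes left out. It had 1.46, 1.45 and 1.02 in Has3-deficient ligated and 1.0, 0.80, 1.82 and 1.11 in wildtype ligated arteries. Irf7 was thus highest in wildtype array 3 but level in Has3-deficient arrays 3 and 5.

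Cxcl12, a chemokine of stromal cells that the uninjured vessel also makes, had the smallest rise. Its values were 0.91, 0.66 and 0.56 in Has3-deficient ligated arteries, against 0.00, -0.21, -0.56 and -0.27 in Has3-deficient non-ligated ones. In wildtype they were 0.52, 0.95, 0.70 and 0.44 after ligation, against -0.38, -0.07, -0.47 and -0.60 without. Ligated arrays were above non-ligated ones by at least 0.51 log2 units in each genotype. Cxcl12 rose by 0.97 ± 0.16 (1.96-fold, adjusted p = 0.000485, limma) in Has3-deficient and by 1.03 ± 0.14 (2.04-fold, adjusted p = 8.39e-05) in wildtype arteries.

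Both receptors rose in both genotypes. Cxcr2, the neutrophil receptor for the ELR chemokines, had 3.05, 2.81 and 2.62 in Has3-deficient ligated arteries, against -1.11, -1.30, -1.09 and -0.54 in Has3-deficient non-ligated ones. In wildtype it had 3.36, 2.63, 2.74 and 2.13 after ligation, against -1.16, -1.09, 0.00 and -1.13 without. Every ligated array was at least 2.13 log2 units above every non-ligated array of its genotype, and wildtype non-ligated array 3 was apart from the other three of its group. Cxcr2 rose by 3.83 ± 0.30 (14.3-fold, adjusted p = 6.46e-07, limma) in Has3-deficient and by 3.56 ± 0.28 (11.8-fold, adjusted p = 4.70e-07) in wildtype arteries.

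Cxcr4, the receptor of Cxcl12, had 1.55, 1.5 and 1.22 in Has3-deficient ligated arteries, against -2.09, -2.31, 0.00 and -1.29 in Has3-deficient non-ligated ones. In wildtype it had 1.81, 1.81, 1.37 and 1.57 after ligation, against -1.77, -1.59, -2.22 and -2.19 without. The value of 0.00 belongs to Has3-deficient non-ligated array 3, the array that was also highest in neuron and chromaffin genes; the part of those cells in the value was not tested. The change was 2.84 ± 0.40 (7.18-fold, adjusted p = 0.000166, limma) in Has3-deficient and 3.58 ± 0.37 (12-fold, adjusted p = 6.10e-06) in wildtype arteries. Without that array the change in Has3-deficient arteries was 3.32. The Cxcr4 call in Has3-deficient arteries was kept in 22 of 23 alternatives.

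**Figure D3:**
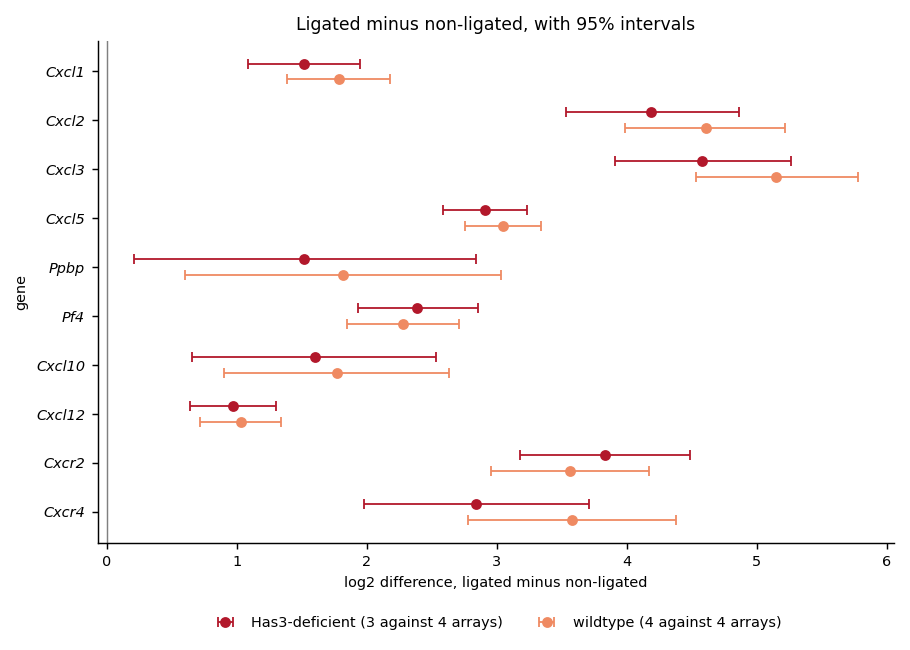
Points give the log2 difference, ligated minus non-ligated, on the x axis for each gene on the y axis, with 95% intervals from limma, in Has3-deficient (upper point of each pair) and wildtype arteries. All intervals lie above 0, from Cxcl12 with 0.97 and 1.03 to Cxcl3 with 4.58 and 5.15, and the intervals of both genotypes overlap for every gene.

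The responses of both genotypes were then set against each other. In the test of the difference between the ligation responses 0 of 10 genes passed (limma), as did 0.0% of all genes, with 8.12% of all genes at an unadjusted p under 0.05 and 0 of the 10. The point estimates were -0.74 (95% interval -1.92 to 0.44) for Cxcr4, -0.57 (-1.49 to 0.35) for Cxcl3 and -0.41 (-1.32 to 0.49) for Cxcl2, where a negative value means a smaller rise in Has3-deficient arteries. Those for Cxcr2 (0.27, -0.62 to 1.16) and Pf4 (0.11, -0.52 to 0.75) were positive. The intervals leave room for differences of more than 2-fold for Cxcl2, Cxcl3, Cxcl10, Ppbp, Cxcr2 and Cxcr4, so a p above the threshold does not show that the responses were alike. Cxcl12 and Cxcl5 had the narrowest intervals, from -0.52 to 0.39 and from -0.57 to 0.30.

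Within ligated arteries no gene of the set separated the genotypes. Of the 10 genes 0 passed (limma), as did 0.0% of all genes, and 0 of the 10 had an unadjusted p under 0.05, against 4.1% of all genes. The arrays of the genotypes overlapped for all 10; among all genes 3.55% were higher and 3.35% lower in Has3-deficient arteries with no overlap. Cxcl3 averaged 3.81 ± 0.16 (SD, n = 3) in Has3-deficient and 4.05 ± 0.60 (n = 4) in wildtype ligated arteries, a difference of -0.24 (95% interval -0.92 to 0.43). Cxcl5 averaged 2.77 ± 0.08 in Has3-deficient and 2.57 ± 0.18 in wildtype ligated arteries, a difference of 0.20 (-0.12 to 0.52). Pf4 averaged 1.74 ± 0.28 in Has3-deficient and 2.03 ± 0.22 in wildtype ligated arteries, a difference of -0.29 (-0.75 to 0.18), the largest in size of the 10.

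Without ligation the picture was the same in count. Of the 10 genes 0 passed (limma), where 0.0857% of all genes did, and the arrays of the genotypes overlapped for all 10, where 2.4% of all genes were higher and 3.82% lower in Has3-deficient arteries with no overlap. Cxcl5 was the one gene of the set with an unadjusted p under 0.05 (0.0283, adjusted p = 0.309), a level 13.4% of all genes reached: it averaged -0.14 ± 0.20 in Has3-deficient and -0.48 ± 0.29 in wildtype non-ligated arteries (SD, n = 4 each), a difference of 0.34 (95% interval 0.04 to 0.63). Cxcr4 averaged -1.42 ± 1.04 in Has3-deficient and -1.94 ± 0.31 in wildtype non-ligated arteries, a difference of 0.52 that was 0.04 without Has3-deficient non-ligated array 3. Pf4 averaged -0.65 ± 0.44 in Has3-deficient and -0.25 ± 0.23 in wildtype non-ligated arteries, a difference of -0.40 (-0.83 to 0.03). Ordered by group mean, all 10 genes therefore had both ligated groups above both non-ligated ones, while neighbours in that order that differ by genotype alone did not differ past the test.

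**Figure D4:**
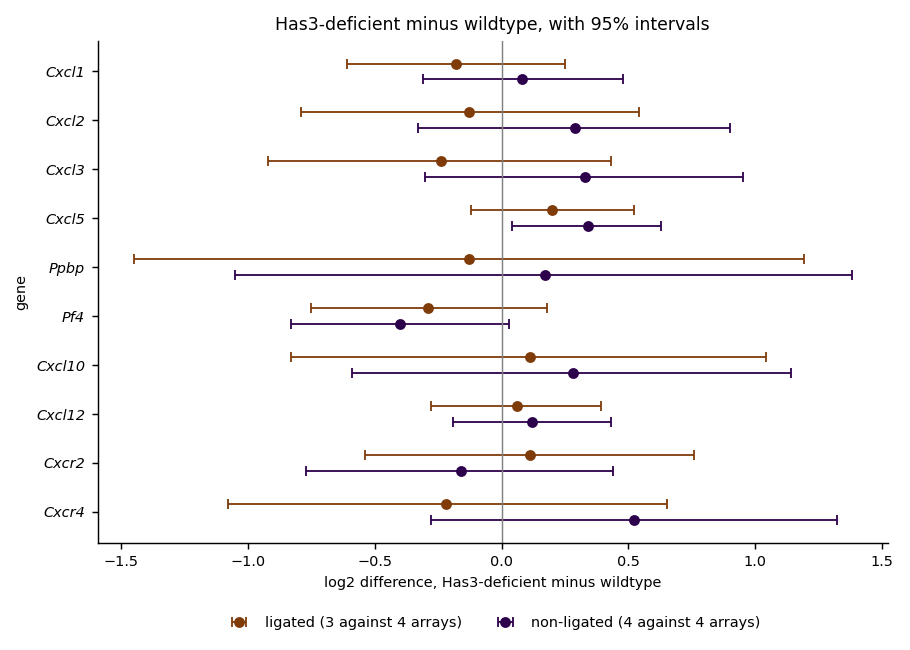
Points give the log2 difference, Has3-deficient minus wildtype, on the x axis for each gene on the y axis, with 95% intervals from limma, in ligated (upper point of each pair) and non-ligated arteries. Every interval but that of Cxcl5 in non-ligated arteries (0.04 to 0.63) includes 0.

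The rest of the CXC family was less uniform than the 10 genes. Of 7 other CXC ligands measured, 2 rose in Has3-deficient and 3 in wildtype arteries, with medians of 0.24 and 0.09. Cxcl16, a membrane-bound ligand of Cxcr6, rose by 2.02 ± 0.10 in Has3-deficient (adjusted p = 2.43e-08, limma) and by 1.94 ± 0.10 in wildtype arteries (adjusted p = 9.60e-09). Cxcl14, a chemokine of epithelia and fibroblasts, rose by 1.84 ± 0.12 in Has3-deficient and by 1.77 ± 0.11 in wildtype arteries. Cxcl9, an interferon-induced ligand of Cxcr3, changed by 0.32 ± 0.24 in Has3-deficient arteries (adjusted p = 0.435) and rose by 0.79 ± 0.22 in wildtype ones (adjusted p = 0.0157); the difference of these responses did not pass (-0.47, adjusted p = 0.741). Cxcl11, Cxcl13, Cxcl15 and Cxcl17 passed in neither genotype.

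Of 6 other CXC and atypical receptors, 1 rose in Has3-deficient arteries, and 2 rose and 1 fell in wildtype ones. Cxcr1, the second neutrophil receptor of the family, rose by 0.51 ± 0.16 in Has3-deficient arteries (adjusted p = 0.0401, limma, kept in 13 of 23 alternatives) and by 0.76 ± 0.15 in wildtype ones (adjusted p = 0.00135). Cxcr3 changed by 0.18 ± 0.09 in Has3-deficient arteries (adjusted p = 0.221) and rose by 0.24 ± 0.09 in wildtype ones (adjusted p = 0.0495, kept in 6 of 23 alternatives). Ackr3, a scavenging receptor for Cxcl12, changed by 0.03 ± 0.10 in Has3-deficient arteries (adjusted p = 0.880) and fell by 0.44 in wildtype ones (adjusted p = 0.00258). That difference of responses was 0.47 ± 0.14, with an unadjusted p of 0.00423 and an adjusted p = 0.466, so it did not pass. Cxcr5, Cxcr6 and Ackr1 passed in neither genotype.

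Genes that carry or damp the signal of these receptors rose in part. Of 20 measured, 13 rose and 1 fell in Has3-deficient arteries, and 15 rose and 1 fell in wildtype ones, with medians of 1.16 and 1.42. The highest were Fgr, a Src family kinase of myeloid cells (3.20 in Has3-deficient and 3.16 in wildtype), Pik3r5, a subunit of the PI3 kinase that G proteins switch on (2.55 and 2.75), Vav1 (2.62 and 2.49), which activates Rac, and Rac2 itself (2.87 and 2.34). Among those that end or damp the signal, Rgs1 (2.12 and 2.25), Rgs16 (1.37 and 1.54) and the arrestin Arrb2 (1.46 and 1.70) rose in both genotypes, while Grk5 and Rgs2 passed in neither. The G protein subunit Gnai2 rose by 0.31 and 0.35, and Gnb1 and Gnaq did not pass. Plcb3, a phospholipase, fell by 0.42 in Has3-deficient and by 0.31 in wildtype arteries. Most of the genes with high values are known from leukocytes, and macrophage markers rose in 12 of 12 and neutrophil markers in 10 of 15 in each genotype; their part in these rises was not tested.

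Blood cell markers moved with the members to different degrees. The mean of 15 neutrophil markers ran from 1.48 to 1.86 in Has3-deficient ligated and from 1.26 to 1.96 in wildtype ligated arteries, against -0.77 to -0.06 in Has3-deficient non-ligated and -0.83 to -0.23 in wildtype non-ligated ones. Stfa2l1 (5.17 in Has3-deficient, 5.14 in wildtype) and Il1r2 (3.96 and 4.10) had the highest changes of them in both genotypes, followed by Csf3r (3.93) in Has3-deficient and S100a8 (4.06) in wildtype arteries, while Mpo, Elane, Ngp and Ltf, granule proteins made mainly by immature neutrophils, passed in neither genotype and Camp fell by 0.20 in Has3-deficient arteries (kept in 16 of 23 alternatives). Macrophage markers averaged 1.86 to 2.05 in Has3-deficient ligated and 1.90 to 2.16 in wildtype ligated arteries, against -1.20 to -0.15 in Has3-deficient non-ligated and -0.64 to -0.17 in wildtype non-ligated ones. Of the platelet list, which leaves out Ppbp and Pf4, 0 of 7 measured genes rose in either genotype, Itgb3 fell by 0.51 in wildtype, and the mean ran from -0.07 to -0.03 in Has3-deficient ligated and from -0.10 to 0.02 in wildtype ligated arteries, against -0.21 to 0.28 in Has3-deficient non-ligated and -0.19 to 0.36 in wildtype non-ligated ones. On the arrays where Pf4 rose, Itga2b (-0.08 in Has3-deficient and 0.14 in wildtype), Gp5, Gp6, Gp9, Treml1 and Clec1b did not pass. Whether these probe sets detected their genes here is not known, since signal levels are lost. The cells behind the Pf4 values were not tested. Of 7 measured T and NK cell markers 4 rose in each genotype, though not the same 4. Cd4 and Il7r passed in both, with Cd3e and Cd3g in Has3-deficient and Ncr1 and Klrb1c in wildtype arteries. The difference between the ligation responses passed for 0 of the 7, so this is not a difference between genotypes. The Has3-deficient calls were kept in 15 (Cd3e), 16 (Cd3g) and 17 (Cd4) of 23 alternatives. In wildtype the Cd4 call was kept in 21 of 23, and those of Ncr1 and Klrb1c in all.

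**Figure D5:**
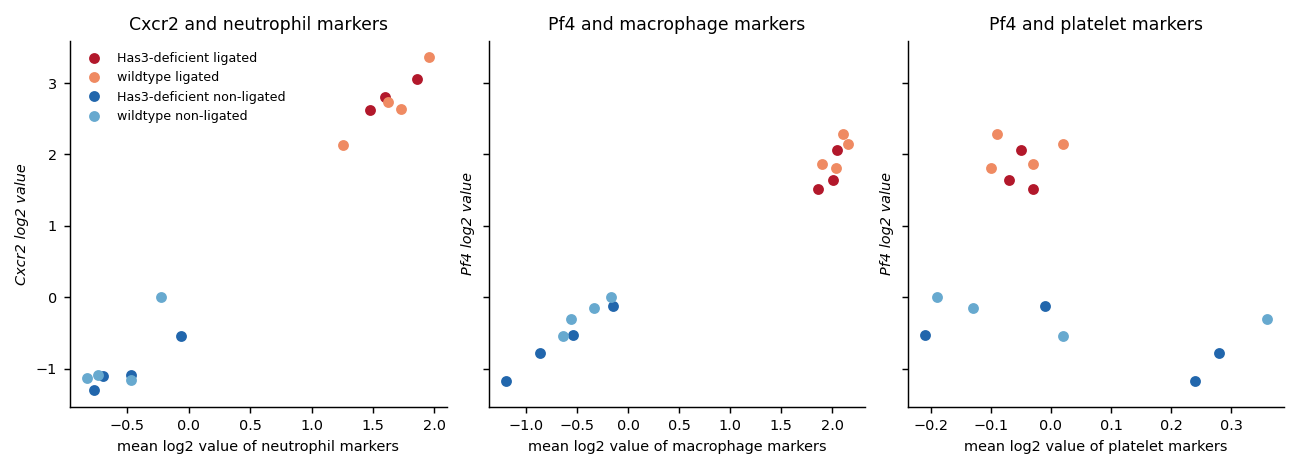
Each point is an array, coloured by group: Cxcr2 against the mean of neutrophil markers (left), and Pf4 against that of macrophage (middle) and platelet markers (right), all as log2 values. Ligated arrays sit to the upper right in the left and middle panels, while along the platelet list they sit between -0.10 and 0.02, inside the range of the non-ligated arrays.

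Across the 15 arrays the genes closest in pattern differed from member to member, with likeness measured as the root mean square difference of log2 values. The search left out the members themselves and predicted genes (symbols of Gm and digits, or with Rik). A member may therefore lie nearer to another member than to the genes given here. Closest to Cxcr2 were Csf3r, the receptor of the neutrophil growth factor G-CSF (0.28 log2 units), Sirpb1a (0.30) and S100a8, a calcium-binding protein of neutrophils (0.30). Closest to Pf4 were Adgre1, a surface receptor used as a macrophage marker (0.18), Themis2 (0.21) and Dock2 (0.21). Cxcl3 was closest to the myeloid lectin receptors Clec4d (0.31) and Clec4e (0.32) and to Saa3 (0.33), and Cxcl2 to Mpeg1 (0.33), Il1r2 (0.39) and Il1f9 (0.40). Cxcl1 lay nearest to Tnfrsf9 (0.16), Tnn (0.20) and Rai14 (0.22), and Cxcl5 to Slc37a2 (0.24), Slc15a3 (0.26) and Mcemp1 (0.29). The neighbours of Cxcl12 were Ppic (0.16), the collagen-modifying enzyme Plod1 (0.17) and the prostacyclin receptor Ptgir (0.17). Cxcl10 was nearest to Irf7, a transcription factor of the interferon response (0.39), Bcl3 (0.43) and Serpina3n (0.48), and Cxcr4 to Slc7a8 (0.40), B4galnt1 (0.54) and P4ha3 (0.67). Ppbp had no close neighbour: its nearest genes, Rsad2, Col8a1 and Isg20, were 0.70 to 0.74 away. Slc7a8, like Cxcr4, was at 0.00 in Has3-deficient non-ligated array 3, against -2.65 to -1.30 in the others of its group. B4galnt1 and P4ha3 were at 0.00 on that array too. These genes were picked for likeness to Cxcr4, so the shared value follows in part from that choice.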

How the data were processed

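The authors deposited log2 values for 15 arrays, in which each of 33793 probe sets has a median of 0; per the labels, 100 ng of total RNA was amplified and labelled with biotin. Software and normalization between arrays are not stated there, and neither is the base of the logarithm, which was taken as 2. Signal levels are lost, so no filter on dim probe sets could be made; the number of arrays limits the precision. Probe sets with 1 gene symbol (23521) were averaged per gene, giving 22180 genes; 1814 had several symbols and 8458 were unlisted. One linear model of the 4 groups was fitted to all genes with limma 3.58.1 in R 4.3.3 (11 residual and 2.69 prior degrees of freedom), with Benjamini-Hochberg adjustment over all genes and a threshold of 0.05. Promoters came from a RefSeq table of assembly GRCm38.p6. The members and gene lists were chosen with earlier results of these data known, the neuron and chromaffin list and the motifs after the values were seen. Named genes were the members, the pathway and neighbour genes, and the 3 nearest non-member genes per member, predicted genes left out. Up to 3 or 4 per list were named by size of change. Other genes of these lists were added after their values were seen. Of the lists, fat, endothelial and adventitial fibroblast markers rose in 0, 3 and 3 and fell in 0, 3 and 3 genes of 6, 10 and 9 in Has3-deficient arteries. In wildtype arteries they rose in 0, 3 and 1 and fell in 3, 4 and 5. On simulated data with 22180 genes, changes of 1 log2 unit were recovered in 89.6% (ligation in Has3-deficient) and 98.5% (ligation in wildtype) of cases. For genotype the shares were 95.5% in ligated and 89.6% in non-ligated arteries. False calls were 4.1%, 4.3%, 6.4% and 4.5% of calls in the same order. Each share rests on 67 genes drawn from all genes with independent noise, so it is not the recovery for the members. Far fewer genes were changed there than passed with ligation. The alternatives were a replicate block, array weights, quantile normalization, centring on a common median, a robust prior, a fit of the compared groups alone, the most variable probe set per gene, leaving out each array in turn and, added after seeing the data, all probe sets tested singly.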

Additional observations from a re-analysis of the deposited data

Results flagged for a closer look

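Of 30 combinations of a member and a group of 4 arrays, 1 held an array far from the others of its group; chance alone gives about 1 in 20. Cxcr2 was at 0.00 in wildtype non-ligated array 3, against -1.16 to -1.09 in the other three. The same array was the highest of its group in the mean of neutrophil markers (-0.23, against -0.83 to -0.47) and in Csf3r (0.00, against -1.26 to -0.90). Csf3r is of that list and was picked as nearest to Cxcr2, so its value is not a separate observation. The array was also highest in platelet markers (0.36, against -0.19 to 0.02) and in T and NK cell markers (-0.05, against -0.46 to -0.35). In macrophage markers (-0.56) it was not the highest. The cause was not tested.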

How the results depend on the processing

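Of the 19 ligation calls among the 10 genes, 16 held in all alternatives run, and none of the 30 genotype and interaction results passed in any. The number of members that rose was 8 to 9 in Has3-deficient and 9 to 10 in wildtype arteries over all alternatives. Ppbp in wildtype did not pass after quantile normalization (1.58, adjusted p = 0.0643) and ranged from 1.31 to 2.27 when each array was left out; Cxcl10 in Has3-deficient arteries ranged from 1.05 to 1.93. The labels do not say that a replicate number marks the same animal or batch, so replicate numbers were not taken as pairs. Deviations of same-numbered arrays correlated at 0.028 to 0.164 between wildtype ligated and non-ligated arrays. Between Has3-deficient and wildtype non-ligated arrays they correlated at -0.401 to -0.235. These correlations do not decide whether the numbers mark pairs. With the replicate block 8 members rose in Has3-deficient arteries, Cxcr4 at 2.68 (adjusted p = 0.083) being lost, and 9 in wildtype ones, Ppbp at 1.82 (adjusted p = 0.0738) being lost, while over all genes 1175 rose and 360 fell in Has3-deficient arteries against 2262 and 1793; the Has3-deficient ligated and non-ligated arrays share 1 number. With only the groups compared 1056 fell there, and 996 without Has3-deficient ligated array 3. Between genotypes in non-ligated arteries 2 genes were higher and 17 lower, against 0 to 57 and 0 to 223 when an array was left out and 41 lower with quantile normalization, 7 with array weights, 5 with the most variable probe set and 0 with the replicate block or only the groups compared; in ligated arteries 1 gene passed with array weights and 1 with only the groups compared. The causes were not tested.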

Other observations

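The decamer GGGAATTTCC upstream of Cxcl1, Cxcl2 and Cxcl3 was followed to other genes after the values had been seen. Of 17 other measured genes with it in the 250 bases before a start, 2 rose and 2 fell in Has3-deficient arteries, and 2 rose and 4 fell in wildtype ones. Over all genes 10.2% rose and 8.08% fell in Has3-deficient arteries, and 13.2% rose and 14.6% fell in wildtype ones. Counts this small cannot be told from these shares. Those that rose were Nfkbia, the inhibitor that NF-kB induces (0.88 in Has3-deficient and 1.31 in wildtype), and Ccr3, a receptor of eosinophils (0.88 and 0.39). Cep112 and Trio fell in both genotypes (-0.29 and -0.52 in Has3-deficient, -0.71 and -0.60 in wildtype), and Il16 (-0.47) and Csad (-0.30) fell in wildtype. Genes with the wider NF-kB consensus rose in 15% of 1555 cases in Has3-deficient and 18.9% in wildtype arteries, against 10.2% and 13.2% of all genes. A higher share was not particular to this consensus. It was 17.3% and 19.8% for the interferon response element and 13.1% and 15.4% for AP-1, but 8.68% and 10.7% for TATAAA. The members are included in all of these. No test was made of these shares.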
